A study of Homo sapiens with 5 samples.

Results

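The immunoglobulin-type adhesion receptors examined here are 9 cell-surface proteins, BCAM, CD58, ALCAM, MCAM, L1CAM, CADM1, CEACAM1, CEACAM5 and CEACAM6, with EPCAM, which has no immunoglobulin fold, kept as an epithelial reference. They were taken as a named list, and all 10 had a named probe set among the 14812 genes measured. RNA from 5 clones of the human esophageal carcinoma line TE7 was hybridised to Affymetrix Gene 2.0 ST arrays with 1 array per clone. There were 3 clones transduced with pMIRNA1-puro-CDH26, which encodes the cadherin CDH26, and 2 clones transduced with pMIRNA1-puro-control. Each clone grew from a single cell, and all 5 reached confluence and then spent 24 h in RPMI with 1.8 mM Ca2+ before RNA extraction. The groups therefore share the line, the vector and the calcium step, and differences between single-cell clones cannot be told apart from the effect of the construct except by the spread between clones of the same group.

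Each value is a logarithm, taken as base 2, with the average control clone set to 0, so it holds differences between clones and no level of a transcript. A receptor's level therefore cannot be compared with another's, and whether TE7 carries its defining markers cannot be read from these values. In RNA from whole cultures, fewer cells carrying a transcript and less of it per cell cannot be told apart. Precision is limited by the number of arrays. The CDH26 transcript itself, which checks the labels, stood at 2.87, 3.01 and 2.63 in the CDH26 clones and at 0.0067 and −0.0067 in the control clones, every CDH26 clone far above both controls. Its log2 difference was 2.84 ± 0.13 (SE), with an adjusted p of 0.25 in limma. With the limma fit limited to genes free of ties between arrays its adjusted p was 0.0106, so the set of genes tested mattered too.

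Adhesion receptors of the immunoglobulin superfamily hold cells together through stacked immunoglobulin domains that reach out from the membrane. Some bind a copy of themselves on the next cell, some bind a different receptor, and some bind the matrix. Unlike cadherins they do not as a rule need calcium for this. In epithelium different members sit on the basal, lateral or apical membrane, and leukocytes use several of them to dock on epithelial and endothelial cells.

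Start-site windows are printed for the 3 receptors with the most separated or the widest values and for the 3 CEACAM genes, which are close relatives. Each holds the 150 bases before the RefSeq transcription start, read 5′ to 3′ on the gene's strand from RefSeq on GRCh38.p14, which held windows for 8 of the 10 genes. Capitals mark GGGCGG, the GC box bound by SP-family factors, in the first 3 sequences, and the 9-base run found in all 3 CEACAM windows in the others. For BCAM and L1CAM 2 starts are listed, and the first is shown.
BCAM, chr19:44808909-44809058, plus strand: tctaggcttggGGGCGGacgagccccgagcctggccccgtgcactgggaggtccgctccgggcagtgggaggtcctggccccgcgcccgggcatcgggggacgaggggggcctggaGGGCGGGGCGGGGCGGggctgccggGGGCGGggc
CD58, chr1:116571027-116571176, minus strand: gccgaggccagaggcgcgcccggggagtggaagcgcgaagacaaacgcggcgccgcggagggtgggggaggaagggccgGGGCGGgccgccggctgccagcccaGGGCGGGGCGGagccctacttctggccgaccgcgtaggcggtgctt
L1CAM, chrX:153875945-153876094, minus strand: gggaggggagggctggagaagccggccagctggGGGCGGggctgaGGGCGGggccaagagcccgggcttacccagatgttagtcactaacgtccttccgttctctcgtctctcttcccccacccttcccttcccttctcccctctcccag
CEACAM5, chr19:41708476-41708625, plus strand: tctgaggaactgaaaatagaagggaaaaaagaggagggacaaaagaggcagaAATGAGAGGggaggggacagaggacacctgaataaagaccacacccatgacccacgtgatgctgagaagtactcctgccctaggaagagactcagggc
CEACAM6, chr19:41755380-41755529, plus strand: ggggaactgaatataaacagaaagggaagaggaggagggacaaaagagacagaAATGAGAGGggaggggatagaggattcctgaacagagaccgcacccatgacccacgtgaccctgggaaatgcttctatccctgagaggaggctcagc
CEACAM1, chr19:42528482-42528631, minus strand: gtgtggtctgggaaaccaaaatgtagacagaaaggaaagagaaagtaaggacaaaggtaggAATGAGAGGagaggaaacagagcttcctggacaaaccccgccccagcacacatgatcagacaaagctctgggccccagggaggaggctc

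The windows fall into a GC-rich set and a less GC-rich CEACAM set. GC content was 82.0% for BCAM, 78.0% for CD58, 66.7% for L1CAM, 88.0% for MCAM and 65.3% for ALCAM. It was 50.7% for CEACAM5, 52.7% for CEACAM6 and 52.0% for CEACAM1, against a median of 60.0% over all 35116 windows of this length. On either strand, counting overlapping matches, GGGCGG occurred 5 times in BCAM, 3 times in CD58, 2 times in L1CAM, 5 times in MCAM and 1 time in CEACAM1. That is 5 of the 8 windows, where 36.8% of all windows hold a match. CAGGTG, the E-box letters of ZEB and SNAI repressors, was in ALCAM and CEACAM5, 2 of 8 against 10.6% of all windows. GGAATG of TEAD factors was only in the CEACAM1 window (7.1% of all), TATAAA only in that of CEACAM6 (6.7%), and TGANTCA of AP-1 in 0 of 8 (4.2%). CEACAM5 and CEACAM6 were the most alike pair, identical at 121 of 155 aligned positions (78.1%), followed by CEACAM1 with CEACAM6 at 64.2% and with CEACAM5 at 60.7%. The other 25 pairs lay between 39.4% and 57.0%. These matches describe letters only.

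BCAM, the Lutheran glycoprotein, is a laminin receptor found at the base of epithelial cells. It stood at −1.07, −0.72 and −0.15 in CDH26 clones 1, 2 and 3, and at 0.12 and −0.12 in control clones 1 and 2. Each CDH26 clone was lower than either control, but clone 3 cleared the lower control by only 0.027, and the CDH26 clones spanned 0.92 among themselves. The CDH26 mean was −0.64 ± 0.47 (SD, n = 3) against a control mean of 0 ± 0.17 (SD, n = 2), which is 1.56-fold lower in CDH26 clones. The log2 difference of −0.64 ± 0.32 (SE) had a 95% interval of −1.53 to 0.24 and an adjusted p of 0.626 in limma, so it did not pass the threshold. Among all genes 2.09% had a larger difference in size.

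MCAM, also known as CD146, binds the endothelial laminin of vessel walls and is better known from melanoma and endothelium. Its value was −0.043 in all 3 CDH26 clones, and 0.043 and −0.043 in control clones 1 and 2. Only control clone 1 stood apart, so the groups overlap. The log2 difference of −0.043 ± 0.033 (SE) had a 95% interval of −0.14 to 0.050 and a limma adjusted p of 0.643. It was 0 when control clone 1 was left out and −0.087 when control clone 2 was. MCAM held only 2 distinct values over the 5 clones, for reasons not recorded, so its spread is not set against that of BCAM. In size of difference BCAM and MCAM, the laminin-binding pair, were unlike, although this contrast between the genes was not tested. Genes for their laminin ligands and for galectins, 20 in all, carried no named probe set in the table used here and were not analysed here.

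CD58, or LFA-3, is the ligand through which a tissue cell engages CD2 on T cells and natural killer cells. It stood at 0.28, 0.36 and 0.089 in CDH26 clones 1, 2 and 3, and at 0.057 and −0.057 in control clones 1 and 2. Each CDH26 clone was higher than either control, with clone 3 again the nearest, 0.032 above control clone 1. CD58 averaged 0.24 ± 0.14 in CDH26 clones (SD, n = 3) and 0 ± 0.081 in control clones (SD, n = 2), a 1.18-fold higher value. The log2 difference of 0.24 ± 0.10 (SE) had a 95% interval of −0.039 to 0.53 and a limma adjusted p of 0.626. Larger differences were found for 15.3% of genes.

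ALCAM, or CD166, binds CD6 on T cells and other ALCAM molecules. Its values were −0.17, −0.019 and 0.050 in CDH26 clones, and −0.056 and 0.056 in control clones. CDH26 clone 1 lay below both controls, and the other CDH26 clones lay between them. Its log2 difference was −0.047 ± 0.084 (SE), with a 95% interval of −0.28 to 0.19 and a limma adjusted p of 0.831. Without CDH26 clone 1 the difference was 0.015, and without control clone 2 it was 0.0085, so its sign rests on single clones.

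L1CAM, a neural receptor that also binds itself and integrins and anchors to ankyrin, had the widest values of the 10. It stood at −1.04, −1.12 and −0.79 in CDH26 clones 1, 2 and 3, and at −0.93 and 0.93 in control clones 1 and 2. The CDH26 clones lay close together and around control clone 1, while control clone 2 stood alone above the rest. The CDH26 mean was −0.98 ± 0.17 (SD, n = 3) against 0 ± 1.32 (SD, n = 2) in control clones. The log2 difference of −0.98 ± 0.62 (SE) had a 95% interval of −2.73 to 0.76 and a limma adjusted p of 0.626.

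The L1CAM difference depended on which control clone it was taken against. Without control clone 1 it was −1.92, with a limma adjusted p of 0.0733, and without control clone 2 it was −0.051, with an adjusted p of 0.963. Leaving out a CDH26 clone gave −1.08 to −0.91. The 2 control clones differed by 1.87 log2 units, and only 0.203% of genes had a wider gap. L1CAM was the only one of the 10 receptors whose control clones differed by at least 1 log2 unit, as did 1.24% of all genes.

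**Figure D1:**
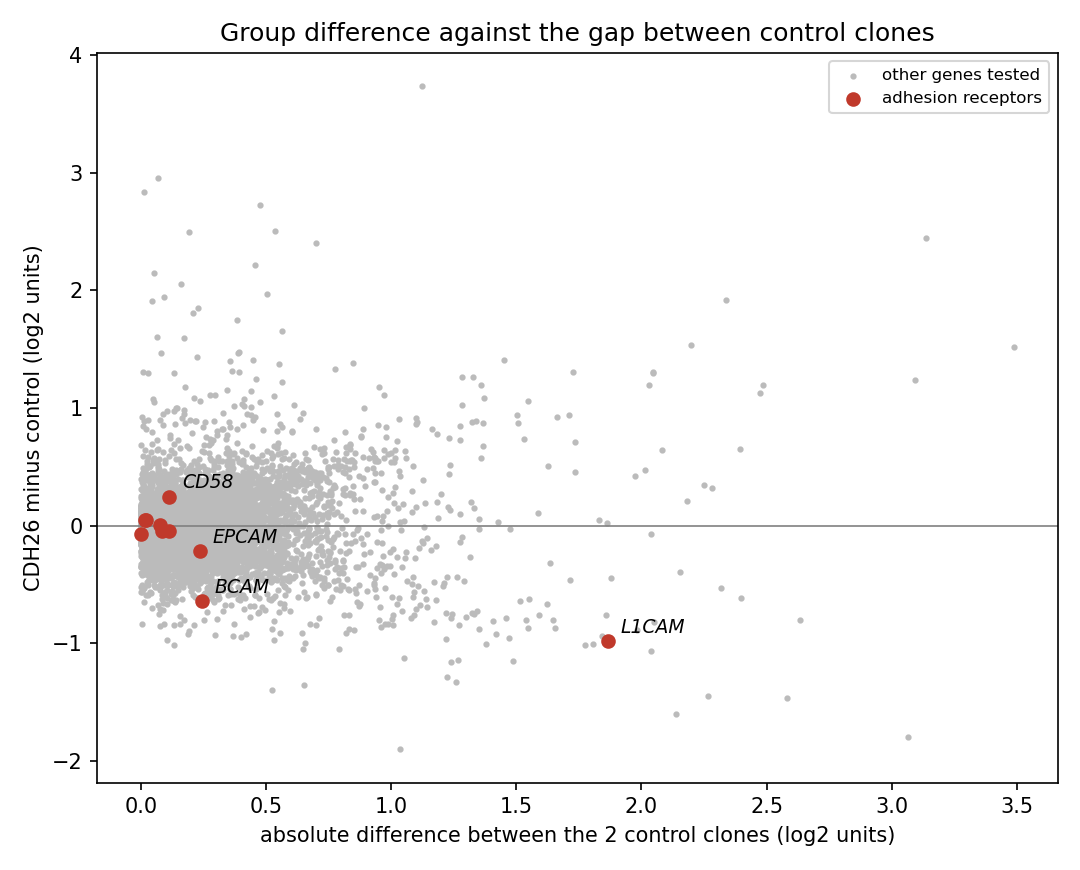
Each point is a gene, with the absolute difference between the 2 control clones on the horizontal axis and the CDH26 minus control difference on the vertical axis, both in log2 units. The 10 adhesion receptors are red and the other genes grey. L1CAM lies at a control gap of 1.87, and the other 9 lie at the left edge of the plot.

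CADM1, a nectin-like receptor that joins neighbouring epithelial cells and is often silenced in carcinomas, stood at 0.11, 0.024 and −0.00052 in CDH26 clones, and at −0.0093 and 0.0093 in control clones. CDH26 clone 1 was the highest and clone 3 lay between the controls. The log2 difference of 0.044 ± 0.041 (SE) had a 95% interval of −0.073 to 0.16 and a limma adjusted p of 0.694. It was 0.012 without CDH26 clone 1 and 0.066 without CDH26 clone 3. CADM1 was the only receptor with 2 probe sets, and they did not share a sign. The first had a difference of 0.091, carried by a value of 0.23 in CDH26 clone 1, and the other a difference of −0.0032.

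The CEACAM genes encode carcinoembryonic antigen-related receptors of the apical epithelial surface. CEACAM1 spans the membrane and signals through inhibitory motifs, whereas CEACAM5 and CEACAM6 are held by a lipid anchor. CEACAM1 was at 0 in CDH26 clones 1 and 2 and at −0.22 in CDH26 clone 3, and at 0 in both control clones. CEACAM5 was at 0.041, −0.020 and −0.020 in CDH26 clones, and at −0.039 and 0.039 in control clones. CEACAM6 was at 0.012, −0.059 and 0.18 in CDH26 clones, and at −0.011 and 0.011 in control clones. In each of the 3 genes the groups overlap, and CDH26 clone 3 was the lowest for CEACAM1 and the highest for CEACAM6.

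The CEACAM differences were −0.072 ± 0.083 for CEACAM1, 0.00040 ± 0.038 for CEACAM5 and 0.045 ± 0.083 for CEACAM6 (SE), with limma adjusted p-values of 0.75, 1 and 0.838. Their 95% intervals ran from −0.31 to 0.16, from −0.11 to 0.11 and from −0.19 to 0.28. Without CDH26 clone 3 the CEACAM1 difference was 0. With base 2 taken, differences beyond 0.31 log2 units in either direction lie outside all 3 intervals. The intervals of CEACAM1 and CEACAM5 rest on partly tied values, so this is no firm limit. CEACAM5 and CEACAM6, the pair with the most alike start windows, did not share an order of clones. CEACAM5 was highest in CDH26 clone 1 and CEACAM6 in CDH26 clone 3. CEACAM transcripts resemble each other, and how far their probe sets read each other's RNA was not tested. Exact ties between arrays were found for MCAM and CEACAM1, each with 2 distinct values over the 5 clones, and for CEACAM5 with 4, for reasons not recorded.

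EPCAM, an epithelial adhesion protein and carcinoma marker, stood at −0.38, −0.19 and −0.086 in CDH26 clones, and at −0.12 and 0.12 in control clones. CDH26 clones 1 and 2 lay below both controls and clone 3 lay between them. Its log2 difference was −0.22 ± 0.13 (SE), 1.16-fold lower in CDH26 clones, with a 95% interval of −0.57 to 0.14 and a limma adjusted p of 0.626. The difference was −0.34 without control clone 1, −0.098 without control clone 2 and −0.14 without CDH26 clone 1. In BCAM, CD58 and EPCAM alike, CDH26 clone 3 was the CDH26 clone closest to the controls.

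**Figure D2:**
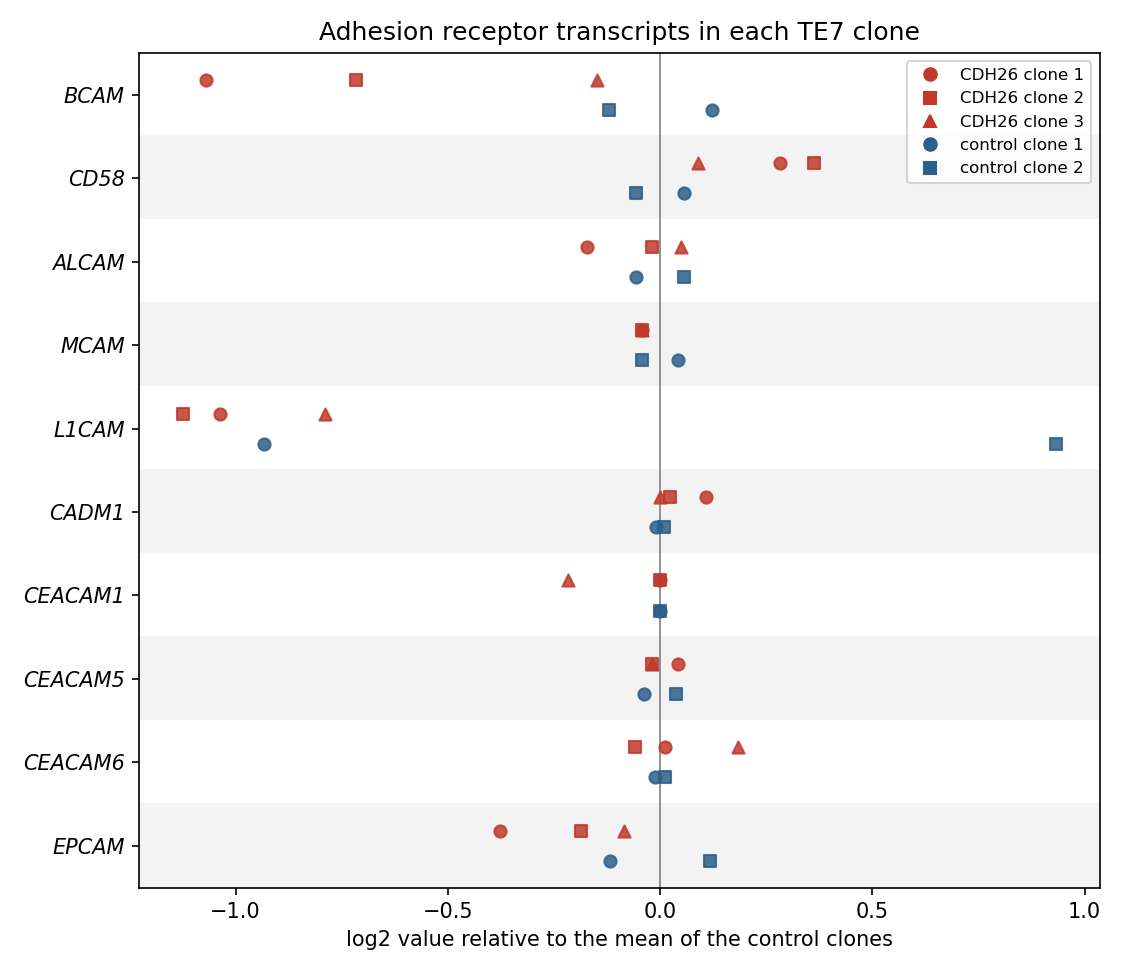
Log2 values, with the control mean at 0 (horizontal axis), for the 10 receptors (vertical axis), with the 3 CDH26 clones in red above the 2 control clones in blue; each point is 1 clone. The CDH26 clones lie below both control clones for BCAM and above both for CD58, and control clone 2 stands apart at 0.93 for L1CAM.

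Over the list as a whole, 0 of 10 receptors passed the limma threshold, as did 0 of 14812 genes (0%). CDH26 itself, at a difference of 2.84, missed it too, so this count says little about smaller changes. At an unadjusted p under 0.05, limma counted 0 of 10 receptors and 1113 of 14812 genes, which does not set the receptors apart. The groups did not overlap for 1 receptor above the controls, CD58, where 8.98% of all genes did so, and for 1 below, BCAM, where 9.93% did so. Each count of 1 in 10 is close to those shares. No exact permutation was run for single genes, because with 2 and 3 clones its smallest two-sided p is 0.1. BCAM and L1CAM were lower by at least 0.5 log2 units, 2 of 10 against 1.82% of all genes. That cut was set after values were seen, and the highest difference of the list was 0.24, for CD58. Both lower values depended on single clones: L1CAM was −0.051 without control clone 2, and BCAM was −0.43 without CDH26 clone 1. The median difference over the list was −0.045, against 0 over all genes, with 4 means higher and 6 lower. In size the median difference was 0.059 log2 units, against 0.070 over all genes.

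**Figure D3:**
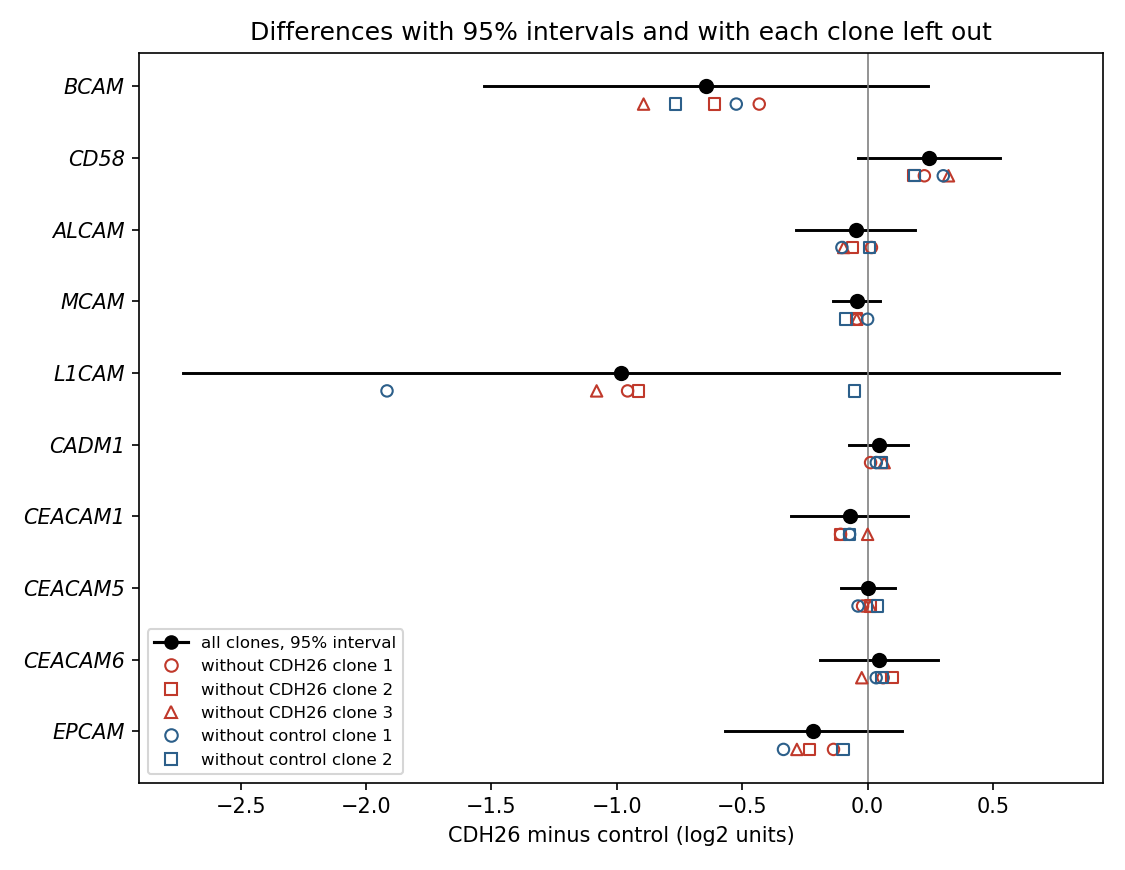
CDH26 minus control difference in log2 units (horizontal axis) for each receptor (vertical axis). Black points with bars are all clones with 95% limma intervals, and open symbols are the difference with 1 clone left out. All 10 intervals include 0, and the L1CAM symbols range from −1.92 to −0.051.

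The count of separated receptors depended on single clones. Without CDH26 clone 3, 5 of 10 did not overlap, with BCAM, L1CAM and EPCAM below and CD58 and CADM1 above, while 32.1% of all genes did not overlap. Without control clone 1 the count was again 5, with BCAM, ALCAM, L1CAM and EPCAM below and CD58 above, against 52.9% of genes. Without control clone 2 it was 5 as well, with BCAM and MCAM below and CD58, CADM1 and CEACAM5 above, against 49.5%. BCAM and CD58 were already separated with all clones. Leaving out a clone cannot undo such a separation, so their place in each count does not test their stability. Removing a control clone leaves a single clone to be above or below, which raises the share for all genes alike.

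Distances between clones were uneven too. As a root mean square difference over the 10 receptors, CDH26 clones 1 and 2 lay 0.147 log2 units apart, and CDH26 clone 3 lay 0.343 from clone 1 and 0.251 from clone 2. CDH26 clone 3 was nearer to control clone 1, at 0.141, than to either other CDH26 clone. Over all genes it lay 0.226 and 0.188 from CDH26 clones 1 and 2, and 0.176 from control clone 1. The 2 control clones were 0.603 apart over the receptors and 0.131 apart without L1CAM, so that L1CAM made up most of the distance. Without L1CAM, CDH26 clone 3 lay 0.141 from control clone 1 and 0.126 from control clone 2.

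Markers of cell identity also differed between the clones, and their part in the receptor results was not tested. Of 14 squamous epithelial markers 11 were measured, and all 11 had higher means in CDH26 clones. Every CDH26 clone lay above both controls for 7 of them (63.6%, against 8.98% of all genes). The basal keratin KRT14 stood 2.72 ± 0.43 log2 units higher (SE) and, like every marker, missed the limma threshold. The median of the 11 was 0.72, 0.75 and 0.53 in CDH26 clones, and 0.35 and −0.35 in control clones. By that median control clone 1 lay nearer to the CDH26 clones than to control clone 2, so part of the difference rests on control clone 2. Control clone 2, the lowest in squamous markers, was the highest in L1CAM. The 15 measured columnar epithelial markers were divided, 7 with higher and 8 with lower means, around a median of −0.0020. Mesenchymal markers had a median of −0.0048 over 10 genes, leukocyte markers 0.028 over 8 and endothelial markers −0.011 over 9. These medians hide larger differences of single genes. The mesenchymal markers ranged from −0.24 to 1.59, the leukocyte markers from −0.097 to 1.13 and the endothelial markers from −0.26 to 0.35.

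Genes with profiles most like CD58 and BCAM, the receptors with the smallest p, were sought by root mean square distance over the 5 clones. For CD58 they were ASF1A, a histone chaperone, at 0.0249, TMEM167B, a small membrane protein, at 0.0268, and ZBTB7B, a zinc finger factor known for CD4 T cell fate, at 0.0302. For BCAM they were GTPBP6 at 0.0736, ZNF512 at 0.0755 and RIPPLY3, a transcriptional co-repressor, at 0.0808.

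Nearest named genes on the chromosome, in RefSeq order, were compared after the receptors' values had been seen. Beside L1CAM, IDH3G, PDZD4, AVPR2 and ARHGAP4 had gaps between control clones of 0.19, 0.17, 0.064 and 0, against 1.87 for L1CAM. Beside BCAM, CEACAM16, BCL3 and NECTIN2 had differences of −0.056 (−0.013 without CDH26 clone 1), 0.11 and −0.24 with overlapping groups, while TOMM40, a mitochondrial import pore, lay below in every CDH26 clone at −0.32 ± 0.052 (SE). Beside CD58, MAB21L3, the next named gene on 1 side, stood at 1.34, 1.83 and 0.71 in CDH26 clones, and at −0.014 and 0.014 in control clones. Its difference of 1.29 ± 0.37 (SE) exceeded that of CD58. NHLH2, MIR320B1 and CD2, the receptor that CD58 binds, lay at 0.0021, −0.015 and −0.097.

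The receptors' relatives and working partners were followed in 8 further lists, 120 measured genes in all. With limma 0 of 120 passed the threshold. Every CDH26 clone lay above both controls for 14 (11.7%, against 8.98% of all genes) and below for 4 (3.33%, against 9.93%), and the median difference was 0.015. The list genes whose differences follow, those with the 3 smallest p of each list, all had a limma adjusted p of 0.626.

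The other CEACAM genes resembled the 3 above in their small values. Of 8 measured, 0 lay wholly above (8.98% of all genes) or below (9.93%). The 3 with the smallest p were CEACAM19 at −0.18 ± 0.099, CEACAM21 at 0.14 ± 0.085 and CEACAM3 at 0.087 ± 0.052 (SE). All 3 depended on the control clones: without control clone 1 they were −0.31, 0.051 and 0.023, and without control clone 2 they were −0.043, 0.24 and 0.15. The next list held nectins, which pair across adherens junctions, nectin-like receptors, which are the kin of CADM1, and their leukocyte partners. It had 1 of 11 above (8.98% of all genes) and 0 below (9.93%). That gene was NECTIN1 at 0.22 ± 0.094, while NECTIN4 at 0.61 ± 0.32 and NECTIN3 at 0.32 ± 0.19 had overlapping groups. NECTIN1 was 0.34, NECTIN4 0.29 and NECTIN3 0.14 without control clone 1, against 0.094, 0.94 and 0.49 without control clone 2. Among 24 receptors of the L1 family and related neural proteins, 0 lay wholly above (8.98% of all genes) or below (9.93%). CNTN1, a lipid-anchored partner of L1-type receptors, stood at 1.24, 1.68 and 0.67 in CDH26 clones, and at 0.68 and −0.68 in control clones. It is another neural receptor whose control clones lay far apart, with control clone 2 the low clone here. The CNTN1 difference was 1.20 ± 0.55 (SE), or 1.88 with control clone 1 left out and 0.52 with control clone 2 left out. NFASC at 0.38 ± 0.19 and BOC at 0.075 ± 0.046 overlapped too, and were 0.24 and 0.014 without control clone 2. BOC was 0.14 without control clone 1.

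Receptors through which leukocytes dock had 0 of 17 above (8.98% of all genes) and 1 below (9.93%). SIRPA, which binds CD47 and restrains phagocytes, stood at −1.04, −0.84 and −0.51 in CDH26 clones, and at −0.15 and 0.15 in control clones, a difference of −0.79 ± 0.20 (SE). ICAM1, the docking receptor for leukocyte integrins, stood at −0.67, −0.95 and −0.65 in CDH26 clones, and at −0.67 and 0.67 in control clones. As for L1CAM, control clone 2 alone lay above the rest, and the ICAM1 difference of −0.75 ± 0.45 (SE) was −0.089 without it and −1.42 without control clone 1. CD276 at −0.10 ± 0.061 overlapped. Junctional adhesion molecules and their relatives had 3 of 11 above (8.98% of all genes) and 0 below (9.93%). These were VSIG1, a gastric-type junction protein, at 0.72 ± 0.18, MPZL2, an epithelial homophilic receptor, at 0.56 ± 0.14 and MPZL3 at 0.35 ± 0.14 (SE). MPZL3 was 0.52 when control clone 1 was left out and 0.17 when control clone 2 was. VSIG1 stood at 0.97, 0.74 and 0.46 in CDH26 clones, and at 0.074 and −0.074 in control clones.

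Inside the membrane, a further list held linkers and scaffolds that tie such receptors to actin and endocytosis. It had 2 of 13 above (8.98% of all genes) and 1 below (9.93%). NUMB, an endocytic adaptor, lay above at 0.33 ± 0.069. The related linkers moesin and ezrin, which bind the cytoplasmic tails of receptors, lay on opposite sides, with MSN above at 0.36 ± 0.14 and EZR below at −0.24 ± 0.062 (SE). EZR stood at −0.33, −0.22 and −0.16 in CDH26 clones, and at −0.028 and 0.028 in control clones. Another list held the proteases that shed receptors such as ALCAM and L1CAM, with gamma-secretase and the TIMP inhibitors. Of its genes 3 of 19 lay above (8.98% of all genes) and 1 below (9.93%). Those separated were gamma-secretase subunits and a TIMP, and the groups overlapped for every shedding protease measured. APH1A, a gamma-secretase subunit, lay above at 0.33 ± 0.096, PSEN2, a catalytic subunit, below at −0.55 ± 0.21, and the inhibitor TIMP1 above at 0.33 ± 0.13 (SE). PSEN2 was −0.28 without control clone 2, and TIMP1 was 0.18 without control clone 1.

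Partners and regulators of EPCAM and of epithelial identity had 5 of 17 above (8.98% of all genes) and 1 below (9.93%). EHF, an epithelial ETS factor, stood at 1.45, 1.43 and 0.65 in CDH26 clones, and at 0.089 and −0.089 in control clones, a difference of 1.18 ± 0.31 (SE). ESRP2, an epithelial splicing regulator, lay above at 0.13 ± 0.042, and GRHL2, a grainyhead factor of epithelial junctions, lay below at −0.13 ± 0.039. CDH26 clone 3 was the nearest of its group to the controls for EHF and GRHL2, as for EPCAM itself. For ESRP2 it was clone 2, at 0.081 beside 0.16 in CDH26 clones 1 and 3.

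**Figure D4:**
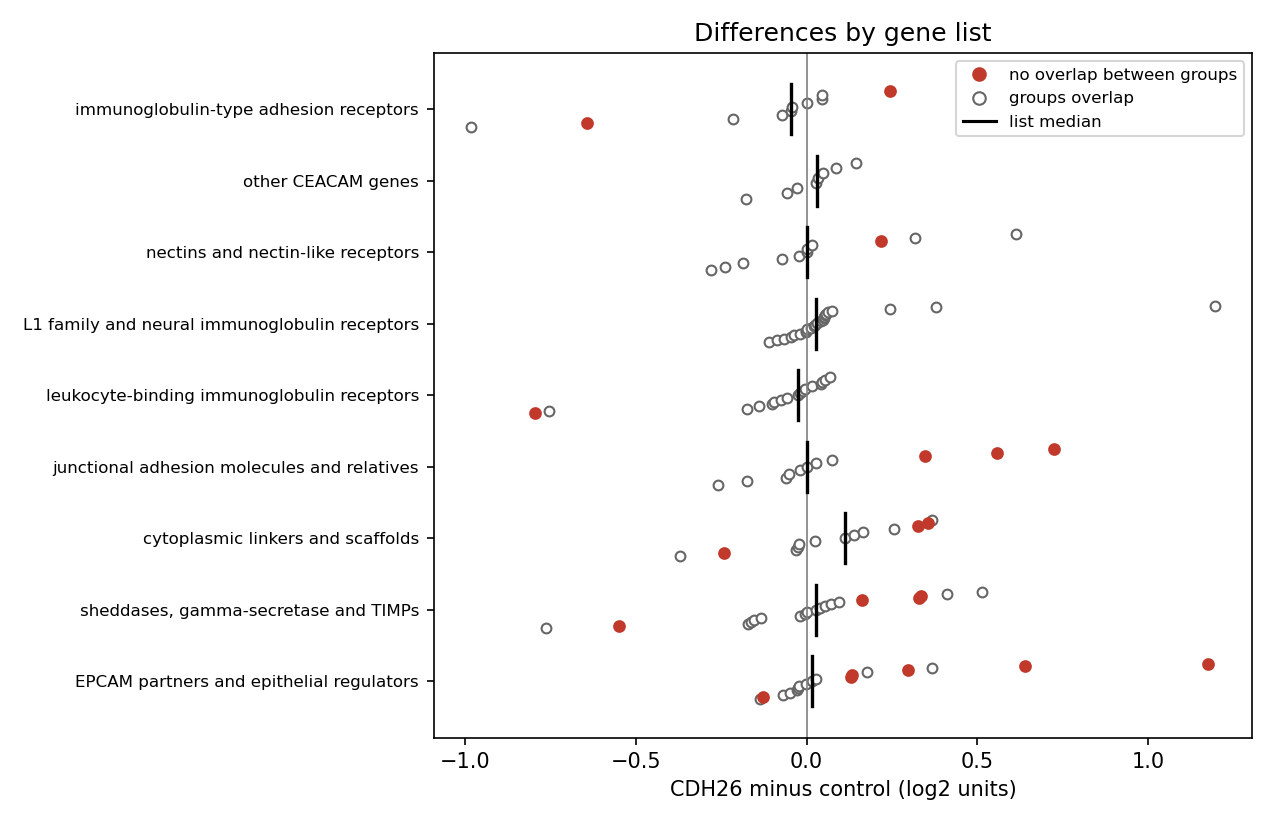
CDH26 minus control difference in log2 units (horizontal axis) for the measured genes of the receptor list and of 8 related lists (vertical axis). Filled points are genes whose groups do not overlap, open points are genes whose groups overlap, and black bars are list medians, −0.045 for the receptors.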

How the data were processed

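The values are the authors' deposited log2 table, with the base taken as 2 because none is recorded. Control values of each probe set sum to 0 within 1e-06, so the authors centred on the control mean. The submitters' processing notes name Affymetrix Expression Console. The sources used here do not give its version, its summarisation method or the genome build. Of 44607 probe sets, 15835 carried 1 gene name, 0 carried several and 28772 none. All 15835 names matched the current RefSeq symbol. Probe sets of a gene were averaged (651 genes had more than 1), and all 14812 genes were tested without a brightness filter, which centred values do not allow.

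Clones are the replicates and were grouped from the labels. The CDH26 and control groups were set against each other by limma 3.58.1 (R 4.3.3; eBayes without trend, two-sided). P-values were adjusted by Benjamini-Hochberg over the 14812 genes, the threshold was 0.05, and the step was tested on simulated data. Values within 1e-05 were counted as tied, and 46.3% of genes were free of ties. Alternatives tried were array weights, a replicate block, a robust variance with trend, array-median centring, natural logarithms, single probe sets, untied genes and each clone left out. Named are all 10 receptors, the 3 genes of each related list with the smallest p, the 3 genes nearest in profile to 2 receptors, and CDH26. The receptors and lists were chosen with earlier results of these data known. Chromosomal neighbours, start windows, KRT14 and the counts at 0.5 and 1 log2 units were added after values were seen. Start windows were aligned with Biopython 1.88, and figures drawn with matplotlib 3.10.9.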

Additional observations from a re-analysis of the deposited data

How the results depend on the processing

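Of 92 receptor differences recomputed under the alternatives, 80 kept their direction, 3 were at 0 (CEACAM1 2 times and MCAM 1 time) and 9 reversed, all 92 on the same side of the threshold. Part of the 92 could not change direction. Array medians were all 0, so centring on them left each value as it was, and natural logarithms only rescaled the values. The replicate block gave the same differences as leaving out CDH26 clone 3. The reversals were in genes with differences under 0.1 in size. CEACAM5 was −0.011 and CEACAM6 −0.010 with array weights, and the probe set of CADM1 with the smaller difference gave −0.0032. Leaving out each clone gave −0.10 to 0.015 for ALCAM, −0.038 to 0.039 for CEACAM5 and −0.023 to 0.097 for CEACAM6. The same omissions gave a median of the receptors of −0.055 to −0.021, 2 to 5 receptors with no overlap between groups and 21 to 65 such related genes, against 18 with all clones (38 without CDH26 clone 3, 65 without control clone 1 and 58 without control clone 2). As shares of the 120 these are 31.7%, 54.2% and 48.3%, against 32.1%, 52.9% and 49.5% of all genes. Receptors lower by at least 0.5 numbered 1 to 2, with BCAM at −0.43 without CDH26 clone 1 and L1CAM at −0.051 without control clone 2. The median was −0.065 if the logarithms are natural. No label ties same-numbered clones together. Their deviations correlated at −0.198 and −0.205 over genes, and those of crossed numbers at 0.198 and 0.205, mirror values because control deviations are equal and opposite, so they do not test for a shared batch. With the number as a replicate block, which drops the unpaired CDH26 clone 3, the median was −0.033, CEACAM6 was −0.023, and no call changed. Of 344 differences of the 49 other named genes, 335 kept direction and call, 3 were at 0 (ARHGAP4, CEACAM4 and MIR320B1), 1 passed the threshold (CDH26) and 5 reversed. At least 1 left-out clone moved the value over 1.5 times or turned its sign in 30 of the 49. NHLH2 was −0.033 with array weights, and leaving out each clone gave −0.044 to 0.034 for NHLH2, −0.24 to 0.45 for BCL3, −0.56 to 0.081 for NECTIN2 and −0.22 to 0.025 for CD2. The cause was not tested. No receptor passed the threshold under any of the 13 settings; the smallest adjusted p was 0.0733, for L1CAM without control clone 1. That setting called 186 genes in all and the untied genes 1 (CDH26, adjusted p = 0.0106), while the others called 0. With a single control clone left, its spread is taken to be that of the CDH26 clones.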

Other observations

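Subunits of gamma-secretase, the protease complex that cuts the stubs of shed receptors inside the membrane, did not lie on the same side of the controls. The limma differences were 0.33 ± 0.096 for APH1A, 0.16 ± 0.071 for PSENEN and 0.51 ± 0.23 for NCSTN, and −0.55 ± 0.21 for PSEN2 and −0.16 ± 0.073 for APH1B (SE). The CDH26 clones were all above the control clones for APH1A and PSENEN and below both for PSEN2, and the groups overlapped for NCSTN and APH1B. Without control clone 1 PSENEN was 0.088 and NCSTN 0.78, and without control clone 2 NCSTN was 0.25, APH1B −0.11 and PSEN2 −0.28. None passed the adjusted threshold, and PSENEN, NCSTN and APH1B were picked out after their values were seen.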
